A study of Mus musculus with 9 samples.

Results

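The genes described here are 8 genes of macrophage biology, C1qa, C1qb, C1qc, Axl, Cd163, Mrc1, Cd68 and Spic, taken by symbol from the table of raw counts. They are 8 of its 47480 gene names. The libraries came from primary blood-forming cells of C57BL/6 mice, and the series names the translatome of stem and progenitor cells as its subject. The groups were MP polysomal RNA (3 libraries), MP total RNA (2), LSK polysomal RNA (2) and LSK total RNA (2). LSK stands by convention for lineage-negative, Sca-1-positive, Kit-positive cells and is labelled as stem cells. MP is labelled as progenitor cells, with no longer name in the labels. Cells of every group had spent 10 min in cycloheximide at 100 ug/ml before lysis, a drug that stalls ribosomes on mRNA. Part of each lysate was kept for total RNA, and the rest was run on a 10 to 60% sucrose gradient, of which fraction 7 gave the polysomal RNA. The labels name no age, sex, genotype or sorting gate, and they do not say whether libraries of a group came from separate mice or sorts. The p-values thus rest on the spread among libraries, and that spread may be technical.

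Macrophages engulf dying cells, cell debris and worn red blood cells, and in marrow and spleen they also handle the iron set free by this work. C1q is a secreted protein built from A, B and C chains. It binds antibody complexes and dying cells, starts the classical complement pathway and is made mainly by macrophages and dendritic cells. Axl is a receptor tyrosine kinase that recognises the surface of dying cells through its ligand Gas6. Cd163 takes up hemoglobin bound to haptoglobin, Mrc1 is the mannose receptor, and Cd68 is a glycoprotein of lysosome and endosome membranes. Spic is a transcription factor related to PU.1 that mouse red pulp macrophages of the spleen need. Macrophages are mature cells and are not the labelled type of any library. In bulk RNA, fewer cells of a type and less RNA per cell cannot be told apart.

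The C1q genes lie side by side on chromosome 4, all on the minus strand, with C1qb at chr4:136880129-136886187, C1qc at chr4:136889804-136893065 and C1qa at chr4:136895917-136898803 (GRCm38, GENCODE M21). The cluster spans 18675 bases and holds 0 other annotated genes. Spic lies at chr10:88674772-88685015 on the minus strand. The RefSeq promoter table for GRCm38 held 7 of the 8 genes. The 250 bases before the start are shown for C1qb, C1qc and Spic, which are the genes in the table with the lowest polysomal log2 change of MP over LSK. The RefSeq starts of C1qc and Spic lie inside their GENCODE genes, so that 151 of the 250 bases shown for C1qc and all 250 for Spic are within the gene. Capitals mark ACTTCCT, the opposite-strand reading of AGGAAGT, which is a core bound by PU.1 and other ETS factors. The windows are chr4:136886201-136886450 for C1qb, chr4:136892915-136893164 for C1qc and chr10:88683024-88683273 for Spic, all on the minus strand, and they read:
C1qb: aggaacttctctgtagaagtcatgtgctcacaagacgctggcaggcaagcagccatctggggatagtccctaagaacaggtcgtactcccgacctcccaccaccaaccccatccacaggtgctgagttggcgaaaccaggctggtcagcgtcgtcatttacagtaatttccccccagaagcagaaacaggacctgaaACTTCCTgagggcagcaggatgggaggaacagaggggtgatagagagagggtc
C1qc: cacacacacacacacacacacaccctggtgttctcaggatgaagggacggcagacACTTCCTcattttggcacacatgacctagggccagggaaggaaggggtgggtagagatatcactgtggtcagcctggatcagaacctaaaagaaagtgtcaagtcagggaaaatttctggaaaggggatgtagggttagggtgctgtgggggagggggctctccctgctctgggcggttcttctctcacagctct
Spic: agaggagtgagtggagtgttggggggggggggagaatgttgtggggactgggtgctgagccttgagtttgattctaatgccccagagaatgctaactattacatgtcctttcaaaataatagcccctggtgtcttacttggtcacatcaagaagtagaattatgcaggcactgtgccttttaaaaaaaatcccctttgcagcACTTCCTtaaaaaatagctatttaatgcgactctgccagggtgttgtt
AGGAAGT was searched on both strands and stood 53 bases before the start in C1qb, 195 in C1qc, 211 in Mrc1 and 48 in Spic, so that 4 of the 7 windows held it. Of 32851 RefSeq windows of the same length, 7.69% held it. TGAGTCA, a core bound by AP-1, stood at 2 places in the Cd68 window, 149 and 24 bases before the start, and 4.46% of all windows held it. Neither motif was in the Cd163 or Axl window. Both motifs were chosen after the windows had been read, and a match is a description of these letters only.

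Library totals ranged from 27342343 to 34807735 counts, and 17199 to 26046 genes had a count. Ly6a, which encodes Sca-1, fell in MP in both fractions (edgeR, adjusted p = 0.0326 in total and 0.0077 in polysomal RNA). Its level was 0.159 to 1.26 CPM (counts scaled to library size, with TMM factors) over the 5 MP libraries, against 50.2 to 110 CPM over the 4 LSK libraries. Kit was high in all libraries, at 493 to 1290 CPM in MP and 330 to 1600 CPM in LSK. Libraries of a group differed widely. Summed CPM of 10 neutrophil markers were 17743 in MP polysomal library 1 and 14288 in MP total library 1, against 444 to 2422 in the other 7 libraries. LSK polysomal library 2 had the highest mean transcript GC content (51.6%, against 48.6 to 50.5% in the other 8) and the fewest genes with a count. Values without 1 of these libraries are given below where they moved a member's result most.

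All 8 genes passed the filter on low counts, and each had at least 10 counts in at least 3 of the MP libraries, so none passed through LSK alone. Their levels were low. Per kilobase of exon, a scale on which genes can be compared, Cd68 was the highest of the 8 in all 4 groups, at 21.5 ± 7.70 CPM per kb in MP polysomal, 22.7 ± 9.16 in MP total, 28.3 ± 10.0 in LSK polysomal and 17.1 ± 1.44 in LSK total RNA (SD, n = 3 for MP polysomal and n = 2 for the others). Cd163 came next in 3 of the groups, at 3.69 ± 1.58 CPM per kb in MP polysomal, 2.07 ± 0.668 in MP total and 4.998 ± 2.78 in LSK total RNA. In LSK polysomal RNA, C1qb (15.2 ± 13.6), C1qa (10.5 ± 6.20), Axl (6.55 ± 3.23) and C1qc (5.25 ± 6.02) stood between Cd68 and Cd163 (3.96 ± 2.80). The SDs of these neighbours overlap, so their order within LSK polysomal RNA is not resolved. In MP polysomal RNA, C1qa (0.792 ± 0.406), Axl (0.767 ± 0.362) and C1qb (0.759 ± 0.511) were all below 1 CPM per kb and did not differ beyond their spread. Spic and Mrc1 were at or below 1.86 CPM per kb in every group.

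**Figure D1:**
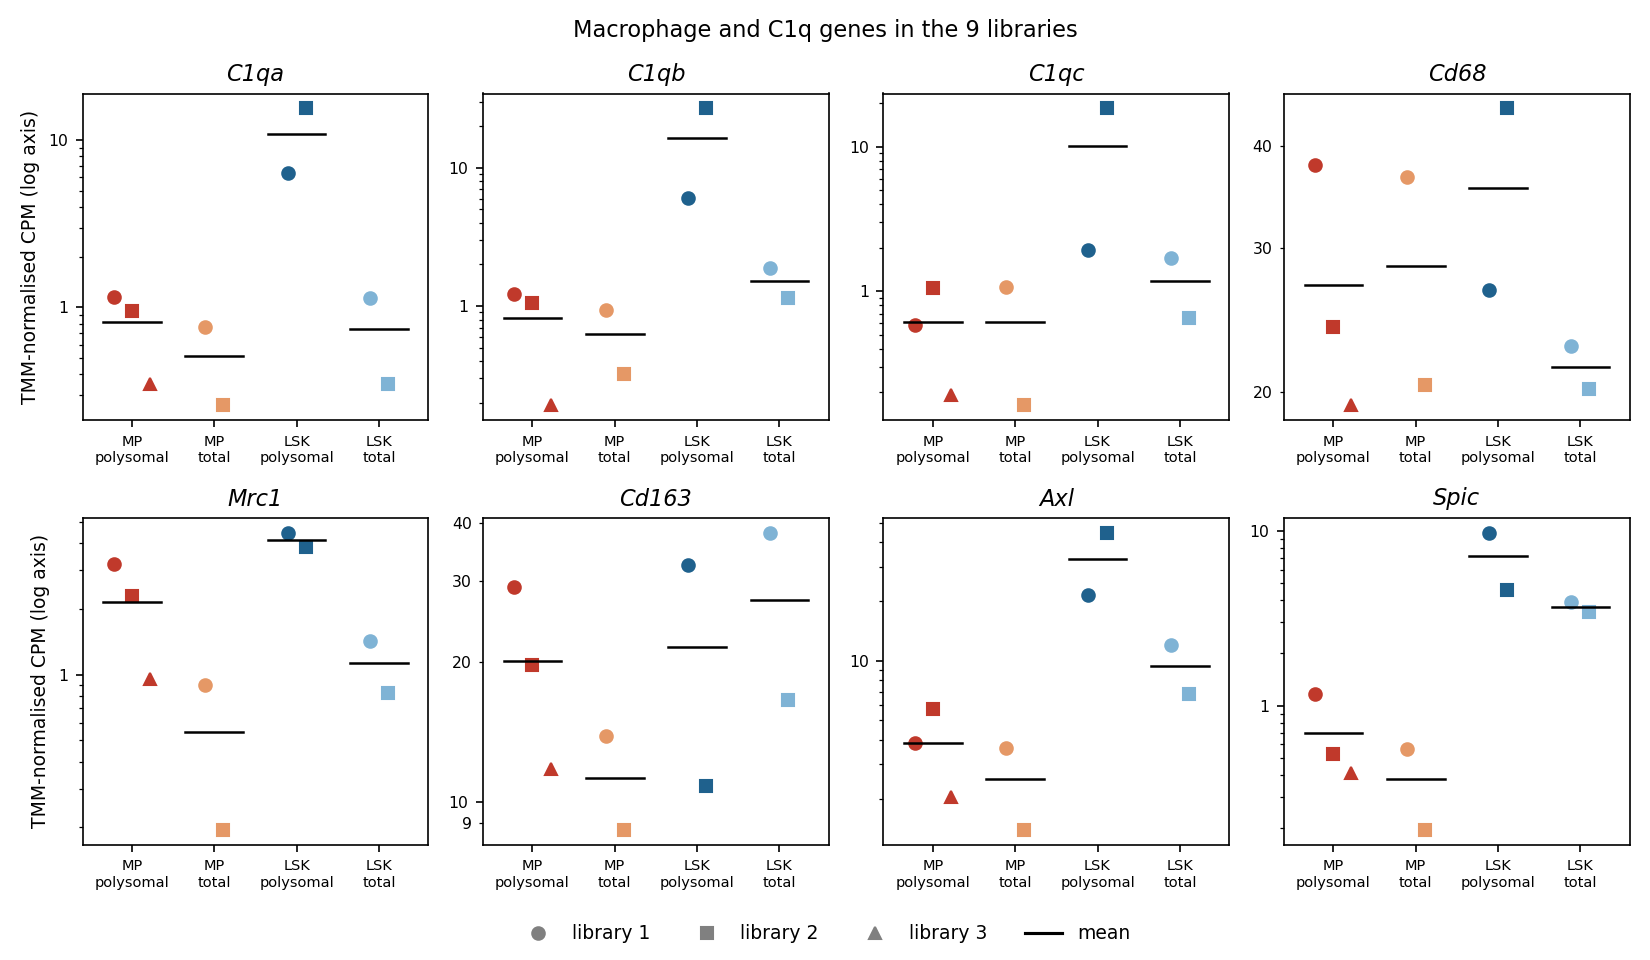
TMM-normalised CPM (log axis) of the 8 genes in each library, by group, with symbols for the library number and a line for the group mean. For C1qa, C1qb, C1qc, Axl and Spic both LSK polysomal libraries lie above all 3 MP polysomal libraries, while the groups overlap for Cd68 and Cd163.

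In polysomal RNA the C1q genes, Axl and Spic stood lower in MP than in LSK, by about 1 order of magnitude, while Cd68 and Cd163 did not separate the populations. C1qa, C1qb, Axl and Spic fell (edgeR's quasi-likelihood test, adjusted p under 0.05). These are 4 of the 8 members, beside 2.83% of the 16426 genes tested that fell and 3.35% that changed in either direction. The median log2 change of the 8 members was -3.22, against -0.03 for all genes tested.

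C1qa, the A chain, had 1.16, 0.958 and 0.351 CPM in MP polysomal libraries 1 to 3, against 6.38 and 15.5 CPM in LSK polysomal libraries 1 and 2. All 3 MP libraries were below both LSK libraries. It averaged 0.823 ± 0.422 CPM in MP and 10.9 ± 6.44 CPM in LSK (SD, n = 3 and 2), a log2 change of -3.73 (SE 0.826, adjusted p = 0.0429), or 13.2-fold lower in MP. C1qb, the B chain, had 1.23, 1.06 and 0.191 CPM in MP, against 6.08 and 26.95 CPM in LSK. Again no library overlapped, but the LSK libraries differed 4.43-fold from each other. The log2 change of C1qb was -4.32 (SE 0.943, adjusted p = 0.0409), 19.9-fold lower in MP. C1qc, the C chain, had 0.581, 1.06 and 0.191 CPM in MP, against 1.93 and 18.4 CPM in LSK. Its LSK libraries lay 9.53-fold apart in CPM. Their gap was 2.73 on the log2(CPM + 1) scale, where 94.4% of the genes tested had a smaller one, and library 1 was within 1 CPM of the highest MP library. C1qc did not pass (log2 change -4.05, SE 1.14, adjusted p = 0.0913).

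Axl, the receptor for Gas6, had 3.86, 5.68 and 2.04 CPM in the MP polysomal libraries, against 21.5 and 44.4 CPM in the LSK polysomal ones. The groups did not overlap, and the log2 change was -3.09 (SE 0.684, adjusted p = 0.0426), 8.53-fold lower in MP. Spic had 1.16, 0.529 and 0.414 CPM in MP, against 9.73 and 4.57 CPM in LSK. Here LSK library 1 was the higher one, the reverse of the C1q genes and Axl. Spic fell by 3.34 on the log2 scale (SE 0.715, adjusted p = 0.0386), 10.2-fold lower in MP.

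The other members did not pass in polysomal RNA. Mrc1 had 3.21, 2.28 and 0.956 CPM in MP, against 4.45 and 3.82 CPM in LSK, so that the MP libraries all stood below the LSK ones, with a log2 change of -0.94 (SE 0.751, adjusted p = 0.574). Cd163 had 29.0, 19.7 and 11.8 CPM in MP, against 32.4 and 10.8 CPM in LSK. Its groups overlapped, with a log2 change of -0.10 (SE 0.672, adjusted p = 0.963). Cd68 had 37.9, 24.1 and 19.3 CPM in MP and 26.7 and 44.5 CPM in LSK. These overlapped as well, with a log2 change of -0.39 (SE 0.536, adjusted p = 0.771). In all, the MP libraries lay below the LSK libraries with no overlap for 6 of the 8 members, beside 17.4% of all genes tested.

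The 4 calls in polysomal RNA rest on few libraries, and none of them held under every setting. Without LSK polysomal library 2, the log2 changes were -2.94 for C1qa (adjusted p = 0.193), -2.87 for C1qb (0.225), -1.65 for C1qc (0.603), -2.47 for Axl (0.192) and -3.78 for Spic (0.0556). C1qa also lost its call without any 1 of the MP polysomal libraries (adjusted p = 0.112 to 0.161). C1qb lost it without any 1 of these or either LSK total library (0.054 to 0.15). Axl lost it without any 1 of the same libraries or MP total library 2 (0.0516 to 0.149), and Spic without any 1 of the MP polysomal or LSK total libraries or LSK polysomal library 1 (0.054 to 0.17). With the replicate number as a block, C1qa (adjusted p = 0.0775), C1qb (0.0726) and Axl (0.0846) lost their calls and Spic (0.0495) did not. With the polysomal libraries alone in the fit all 4 did (0.055 for C1qa, 0.0724 for C1qb, 0.0645 for Axl and 0.0637 for Spic). Transcript GC was 59.5, 57.4 and 57.5% for C1qa, C1qb and C1qc, 54.2% for Axl and 41.8% for Spic. Each library's trend of level with GC content was fitted on the log2 scale. At the GC of C1qa it was -0.753 and 1.11 in LSK polysomal libraries 1 and 2. In MP polysomal libraries 1 to 3 it was -1.04, -0.382 and 0.386. In LSK polysomal library 2 it was 0.835 for C1qb, 0.856 for C1qc, 0.478 for Axl and -0.809 for Spic. The part of GC content in the C1q difference was not tested beyond the removal of this trend. After removal of each library's GC trend, the log2 changes were -2.81 for C1qa (adjusted p = 0.141), -3.39 for C1qb (0.0623), -3.04 for C1qc (0.133), -2.67 for Axl (0.0433) and -3.58 for Spic (0.0149).

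**Figure D2:**
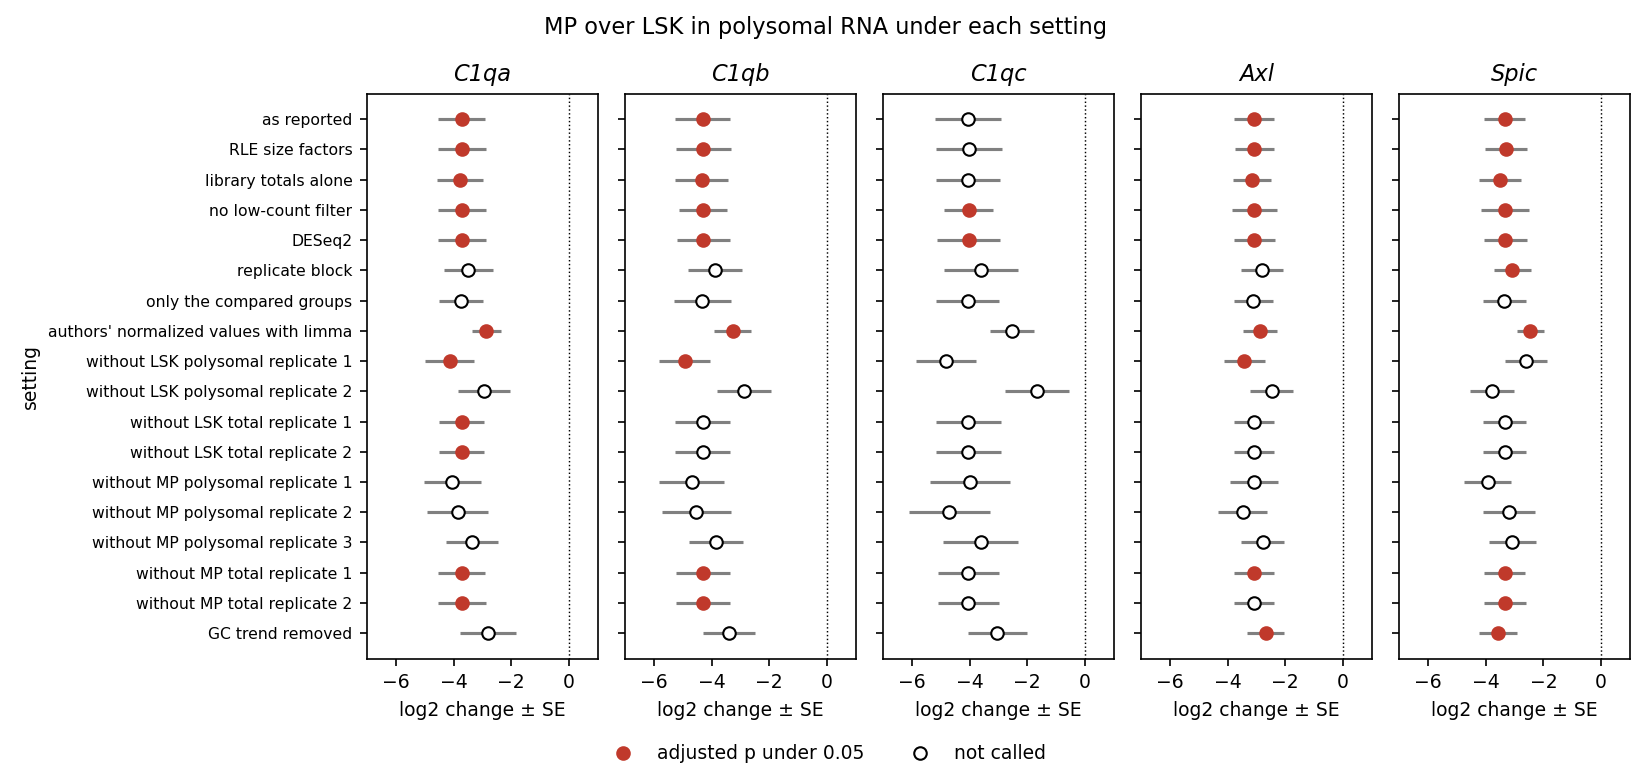
Log2 change ± SE of MP over LSK in polysomal RNA for 5 genes under each setting, filled where the adjusted p was under 0.05. Every value lies below 0, from -1.65 for C1qc without LSK polysomal replicate 2 to -4.94 for C1qb without LSK polysomal replicate 1, while the calls change with the library left out.

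In total RNA 0 of the 8 members passed between MP and LSK, beside 1.09% of all genes tested, 0.816% that fell among them. At an unadjusted p under 0.05, 2 members, Axl and Spic, were lower, beside 12.5% of all genes, and DESeq2 called Spic alone. Spic had 0.566 and 0.195 CPM in MP total libraries 1 and 2, against 3.91 and 3.44 CPM in the LSK total ones. Both MP libraries were below both LSK libraries, with a log2 change of -3.26 (SE 0.842, adjusted p = 0.0928). Axl had 3.63 and 1.40 CPM in MP, against 12.0 and 6.78 CPM in LSK, again with no overlap and a log2 change of -1.90 (SE 0.764, adjusted p = 0.241). Cd163 had 13.9 and 8.70 CPM in MP, against 38.04 and 16.6 CPM in LSK, and C1qb had 0.933 and 0.325 CPM in MP, against 1.90 and 1.15 CPM in LSK. These were the other members without overlap, with log2 changes of -1.27 for Cd163 (SE 0.749) and -1.27 for C1qb (SE 1.01). Together 4 of 8 members were lower with no overlap, beside 28.5% of all genes.

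C1qa, C1qc, Mrc1 and Cd68 overlapped between the populations in total RNA. C1qa had 0.766 and 0.260 CPM in MP, against 1.14 and 0.349 CPM in LSK. C1qc had 1.07 and 0.162 CPM in MP, against 1.69 and 0.648 CPM in LSK. Mrc1 had 0.899 and 0.195 CPM in MP, against 1.43 and 0.823 CPM in LSK. For each of these, library 1 was the higher one of its group, and MP library 1 lay above LSK library 2. Cd68 was the one member with a value above 0, at 36.7 and 20.4 CPM in MP, against 22.8 and 20.2 CPM in LSK (log2 change 0.41, SE 0.593). The log2 changes of C1qa (-0.53, SE 0.904), C1qc (-0.92, SE 1.22) and Mrc1 (-1.04, SE 0.865) were close to their errors or smaller. MP library 1 weighed on these values: without it they were -1.49 for C1qa, -2.80 for C1qc and -2.49 for Mrc1, with adjusted p of 0.74, 0.614 and 0.53.

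**Figure D3:**
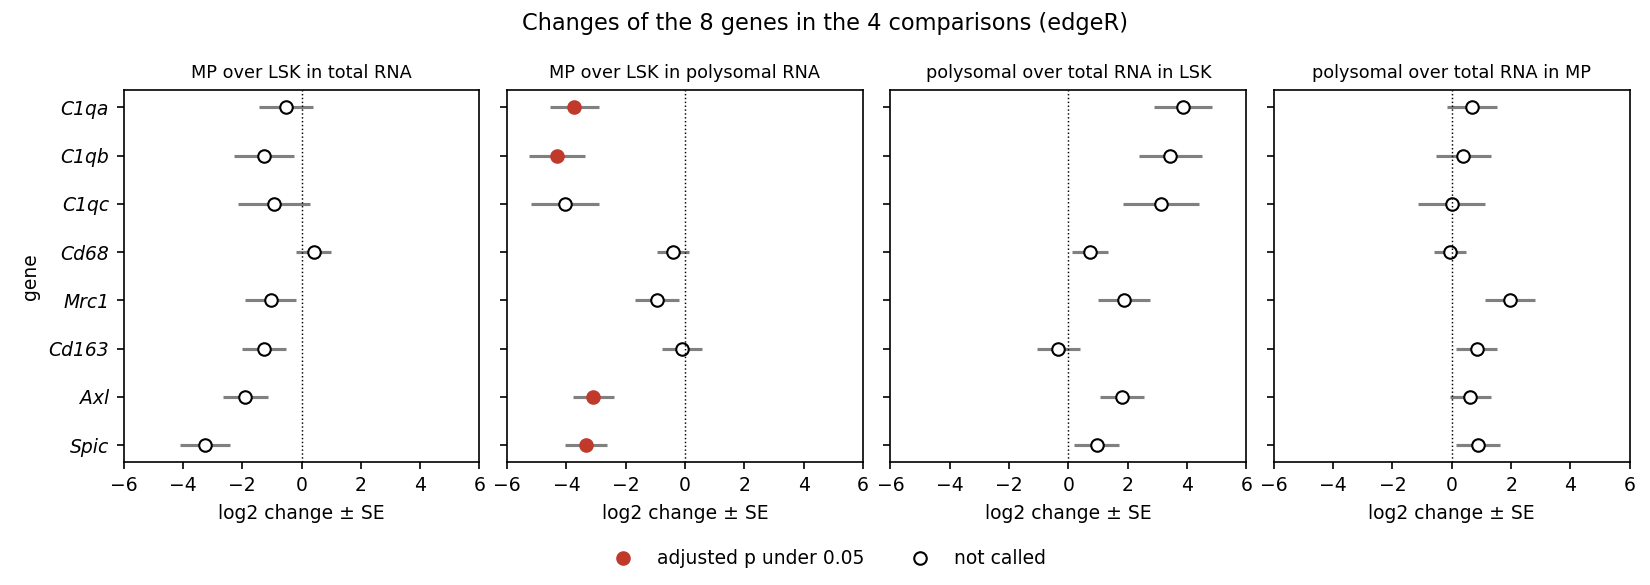
Log2 change ± SE of the 8 genes in 4 comparisons (edgeR), filled where the adjusted p was under 0.05. In MP over LSK polysomal RNA C1qa, C1qb, Axl and Spic are filled and lie between -4.32 and -3.09, and no gene is filled in the other 3 comparisons.

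Polysomal and total RNA of the same population were set side by side next, with the polysomal LSK libraries the same as above, so that this comparison shares them with the one between populations. In LSK, C1qa had 6.38 and 15.5 CPM in polysomal RNA, against 1.14 and 0.349 CPM in total RNA. Both polysomal libraries lay above both total ones, and the log2 change was 3.88 (SE 0.975, unadjusted p = 0.00286, adjusted p = 0.213). C1qb (log2 change 3.44, SE 1.06, adjusted p = 0.251), C1qc (3.11, SE 1.28, adjusted p = 0.373), Mrc1 (1.87, SE 0.863, adjusted p = 0.43) and Axl (1.81, SE 0.757, adjusted p = 0.38) followed. LSK polysomal library 2 carried much of the C1qb and C1qc values. Without it the log2 changes were 3.11 for C1qa, 2.01 for C1qb, 0.73 for C1qc (SE 1.22) and 1.204 for Axl, while that of Mrc1 was 1.99. Spic (0.96, SE 0.762) and Cd68 (0.73, SE 0.595) had smaller values, and Cd163 was the one member at a value below 0 (-0.34, SE 0.738). No member passed, beside 0% of all genes. At an unadjusted p under 0.05, 4 members were higher in polysomal RNA, beside 3.56% of all genes (584 genes, and 1981 in either direction). DESeq2 called C1qa (adjusted p = 0.00519) and C1qb (0.0327) and 433 genes in all. Polysomal libraries lay above the total ones with no overlap for 7 of the 8 members, beside 16.2% of all genes, and the median log2 change was 1.84, against 0.02 for all genes tested.

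In MP the C1q genes overlapped between the fractions. C1qa had 1.16, 0.958 and 0.351 CPM in polysomal RNA, against 0.766 and 0.260 CPM in total RNA, with a log2 change of 0.68 (SE 0.840). The values overlapped, as they did for C1qb (0.39, SE 0.928) and C1qc (-0.01, SE 1.12). These values moved with the setting. Without MP total library 1 they were 1.65 for C1qa, 1.34 for C1qb and 1.89 for C1qc, with errors of 1.17, 1.27 and 1.53, and with the GC trend removed they were 1.53, 1.04 and 0.54. Mrc1 was the one member whose MP fractions did not overlap (1 of 8, beside 16.3% of all genes), at 3.21, 2.28 and 0.956 CPM in polysomal RNA, against 0.899 and 0.195 CPM in total RNA (log2 change 1.97, SE 0.834, unadjusted p = 0.0412, adjusted p = 0.656), and it reached 3.44 without MP total library 1 (SE 1.16, adjusted p = 0.944). Cd163 (0.84, SE 0.691), Axl (0.62, SE 0.689), Spic (0.88, SE 0.747) and Cd68 (-0.08, SE 0.539) did not pass either. No member passed, beside 0% of all genes, of which 1243 had an unadjusted p under 0.05 and 30 were called by DESeq2. The median of the members was 0.65, against -0.08 for all genes.

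The difference of the polysomal over total change, MP minus LSK, was tested as an interaction. It was -3.20 for C1qa on the log2 scale (SE 1.22, unadjusted p = 0.0265), -3.05 for C1qb (SE 1.35, unadjusted p = 0.0491) and -3.12 for C1qc (SE 1.65, unadjusted p = 0.0891). The C1q genes thus stood further above total RNA in LSK than in MP polysomal RNA, at values that did not pass (adjusted p = 0.877 for each). The size of the difference depended on the setting. With the GC trend removed it was -1.81 for C1qa, -1.78 for C1qb and -1.75 for C1qc, and without LSK polysomal library 2 it was -2.42, -1.61 and -0.73. Without MP total library 1 it was -2.24, -2.11 and -1.24. For Axl it was -1.19 (SE 0.998), for Cd68 -0.80 (SE 0.799), for Spic -0.08 (SE 1.14), for Mrc1 0.09 (SE 1.10) and for Cd163 1.17 (SE 1.01). No member passed, beside 0% of all genes, of which 869 had an unadjusted p under 0.05 and 1 was called by DESeq2. C1qa and C1qb are the 2 members below 0 at an unadjusted p under 0.05, beside 0.554% of all genes.

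The C1q protein needs all its chains, so the levels of the chains were compared within each library. Their summed level was 2.97, 3.07 and 0.733 CPM in the MP polysomal libraries, 2.76 and 0.747 in MP total, 14.4 and 60.8 in LSK polysomal and 4.73 and 2.14 in LSK total RNA. The LSK polysomal libraries were the highest, and library 2 held several times the level of library 1. The shares of the chains among C1q counts differed between these libraries. C1qc made up 30.2% of 1464 C1q counts in LSK polysomal library 2 (exact Clopper-Pearson 95% interval 27.9 to 32.6%) and 13.4% of 433 in library 1 (10.3 to 17.0%). C1qa made up 25.5% in library 2 (23.3 to 27.8%) and 44.3% in library 1 (39.6 to 49.2%). C1qb had close to the same share in both, 44.3 and 42.3%. In the MP libraries C1q counts numbered 23 to 93, and C1qc shares ran from 19.5 to 38.6% with wide intervals. These intervals cover counting error only, since reads amplified by PCR are not independent molecules.

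**Figure D4:**
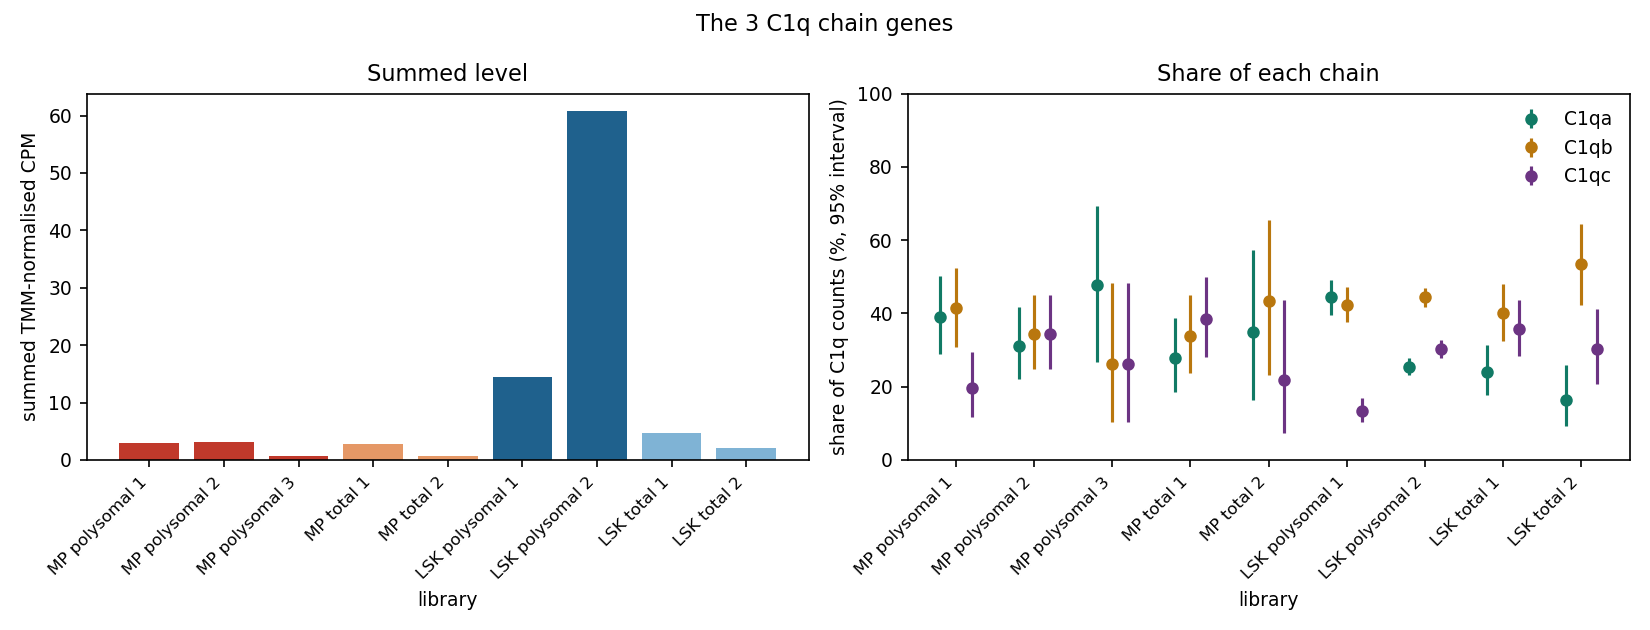
Summed level of C1qa, C1qb and C1qc in TMM-normalised CPM (left) and the share of each chain among C1q counts with its exact 95% interval (right), by library. The sum reaches 60.8 CPM in LSK polysomal library 2 and at most 4.73 CPM outside LSK polysomal RNA, and the shares of C1qa and C1qc differ between the LSK polysomal libraries.

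Across the 9 libraries the members did not follow a single pattern. On log2(CPM + 1), Pearson's r was 0.977 between C1qa and C1qb, 0.96 between C1qb and C1qc and 0.911 between C1qa and C1qc. The mean of the C1q genes had r = 0.928 with Axl, 0.724 with Mrc1, 0.676 with Spic, 0.655 with Cd68 and 0.0435 with Cd163. Axl and Spic had r = 0.863. Cd163 stood apart: its highest libraries were LSK total 1 (38.04 CPM), LSK polysomal 1 (32.4) and MP polysomal 1 (29.0), all numbered 1, where LSK polysomal library 2, the highest in C1q, had 10.8 CPM. These values describe 9 libraries that fall into 4 groups and may share lysates.

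The genes most like each member were taken from 12536 candidates with a mean of at least 1 CPM. For C1q they were Capg, an actin-capping protein (r = 0.987), Haao, an enzyme of tryptophan breakdown (0.978), 2010107G23Rik (0.975), Fcna, the pattern-recognition protein ficolin A (0.975), and Trf, transferrin (0.974). For Axl they were Irf9, a factor of the interferon response (0.99), Phc1, Gpr18, Rab17 and Sdr39u1 (0.985). For Spic they were Cyp2j9 (0.993), Trim30c, Lrch2, Spin2c and Xaf1 (0.978). For Cd68 they ran from Rac2 (0.977) through Nhej1, Rasgrp4 and Gm13509 to Lgals3, galectin 3 (0.95). For Mrc1 they ran from Hacl1 (0.974) through Polr1e and Vipas39 to Aptx (0.958), and for Cd163 from Gas2l3 (0.984) through Tec, Eif2ak2 and Zfp128 to Cdkal1 (0.968). These likenesses are given without a p.

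The gene lists around the members held few calls. Of 32 further markers of resident macrophages, 27 were tested. In polysomal RNA 1 was higher in MP and 1 lower, beside 0.524% and 2.83% of all genes. At an unadjusted p under 0.05, 4 were higher and 13 lower, beside 6.09% and 11.7% of all genes, with a median of -1.34. Some of the tested markers, Siglec1, Mertk, Ms4a7 and Fabp4 among them, stayed at or below 0.376 CPM in every MP library. They passed the low-count filter through LSK, which favours a lower value in MP, so the count of lower markers is in part set by the filter. In total RNA 2 were higher and 0 lower, beside 0.274% and 0.816% of all genes. At an unadjusted p under 0.05, 9 were higher and 1 lower, beside 4.52% and 12.5%, with a median of 0.34. Other settings called from 2 to 14 of the markers in polysomal RNA (9 with DESeq2) and from 0 to 7 in total RNA (7 with DESeq2), and a library left out gave 0 to 2 and 0 to 3.

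Between fractions most of these markers stood above 0 in LSK and below 0 in the interaction, without a call. In LSK polysomal over total RNA 24 of the 27 were above 0, beside 50.8% of all genes. The median was 1.69, against 0.02 for all genes. None passed with edgeR, 12 were higher at an unadjusted p under 0.05, beside 3.56% of all genes, and DESeq2 called 3. Without LSK polysomal library 2, 24 of 28 were above 0, beside 42.1% of all genes, with a median of 1.60. In MP polysomal over total RNA 14 of the 27 were above 0, beside 45.3% of all genes, with a median of 0.01. In the interaction 24 of the 27 were below 0, beside 53.1% of all genes, and 3 of them had an unadjusted p under 0.05, beside 0.554% of all genes. The LSK polysomal libraries are shared by these comparisons. A marker that passed the low-count filter through these libraries, such as Ms4a7, is favoured to stand higher in them.

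Slc40a1, the iron exporter ferroportin, rose in MP in both fractions. It had 252, 218 and 200 CPM in MP polysomal RNA, against 31.7 and 21.7 CPM in LSK polysomal RNA, a log2 change of 3.06 (SE 0.48, adjusted p = 0.015), and one of 3.28 in total RNA (adjusted p = 0.0326). Vcam1, an adhesion molecule of marrow macrophages and stroma, had 170.2 and 72.8 CPM in MP total RNA, against 8.69 and 3.64 CPM in LSK total RNA, and rose by a log2 change of 4.30 (SE 0.82, adjusted p = 0.0465). Maf, a macrophage transcription factor, moved the other way and fell in polysomal RNA, with 0.307, 0.165 and 0.0638 CPM in MP, against 6.01 and 2.33 CPM in LSK (log2 change -4.52, SE 0.79, adjusted p = 0.0206). Maf had at most 0.533 CPM in any MP library and passed the low-count filter through LSK, which favours a lower value in MP.

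The levels of these markers differed widely. Of the 32, 12 stayed under 2 CPM in every library, 11 reached 2 to 20 CPM and 9 more than 20 CPM. Vcam1 (at most 452 CPM), Apoe (285), Slc40a1 (252) and Csf1r (178) were the most abundant. Among the lowest were markers of tissue macrophages, picked here after their values were seen. Timd4 was at most 0.171 CPM, Vsig4 0.299, Marco 0.465, Folr2 0.146 and Siglec1 1.70 CPM. Adgre1, which encodes F4/80, had 14.3, 11.5 and 5.96 CPM in MP polysomal RNA, 6.00 and 2.76 in MP total, 5.41 and 3.86 in LSK polysomal and 1.63 and 0.424 in LSK total RNA, so it stood higher in MP than in LSK where the C1q genes stood lower. Csf1r, the receptor for the macrophage growth factor CSF1, likewise had 148 to 178 CPM in MP polysomal RNA, against 23.2 and 42.0 CPM in LSK polysomal RNA. Neither Adgre1 nor Csf1r was called in either fraction. Fcna and Cd5l, both secreted by resident macrophages, had 5.15 and 20.1 CPM and 3.99 and 8.72 CPM in LSK polysomal RNA, with library 2 the higher one as for C1q, and at most 1.98 and 1.32 CPM in MP polysomal RNA. Neither was called, and Fcna had been picked above for its likeness to C1q. Of the 27 tested markers, 15 (55.6%) were higher in LSK polysomal library 2 than in library 1, beside 46.2% of all genes. The summed level of the 32 markers was 1038, 798 and 898 CPM in MP polysomal, 743 and 589 in MP total, 330.5 and 551 in LSK polysomal and 209 and 399.6 CPM in LSK total RNA, with 1 to 7 markers at 0 counts per library. Vcam1, Slc40a1, Csf1r and Apoe made up 79.5 to 83.6% of this sum in MP polysomal RNA, against 43.1 and 57.5% in LSK polysomal RNA. Without these 4 genes the sum was 175, 131 and 184 CPM in MP polysomal, 189 and 136 in MP total, 188 and 235 in LSK polysomal and 123 and 92.8 CPM in LSK total RNA. The full sum was thus higher in MP polysomal RNA, while 19 of the 27 tested markers had a log2 change below 0 there, beside 51% of all genes. Whether macrophage RNA contributes to the C1q levels was not tested.

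The receptors and ligands of the TAM family (Tyro3, Axl, Mertk, Gas6 and Pros1) were lower in MP polysomal RNA for 4 of 5 genes at an unadjusted p under 0.05, beside 11.7% of all genes. Gas6 and Axl itself, the member counted above, passed, beside 2.83% of all genes. Gas6, the ligand of Axl, had 0, 0.0661 and 0.287 CPM in MP polysomal RNA, against 5.08 and 32.1 CPM in LSK polysomal RNA. It fell by 7.24 on the log2 scale (SE 1.48, adjusted p = 0.0326), so that ligand and receptor were both lower in MP. The size of this change rests on counts near 0 in MP, and it ran from -9.11 to -4.42 under other settings. Tyro3 (-3.82, adjusted p = 0.0874) and Mertk (-3.30, adjusted p = 0.149) were not called, and Pros1, the other ligand, had 0.70. Gas6, Tyro3 and Mertk stayed at or below 0.287 CPM in every MP library and passed the low-count filter through LSK. The filter thus favours a lower value in MP for them, and the count of lower TAM genes is in part set by it. In total RNA 0 of the 5 passed, with a median of -1.90, and other settings called at most 1. At an unadjusted p under 0.05, 3 were lower there, beside 12.5% of all genes.

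Of 30 genes of apoptotic cell uptake, 27 were tested, and 3 fell in polysomal RNA, Axl, Gas6 and Mfge8, beside 2.83% of all genes, with a median of -0.30. Other settings called from 1 to 8 of them, and a library left out gave 0 to 3. Mfge8, a secreted bridge between dying cells and phagocytes, had 31.0, 43.7 and 32.1 CPM in MP polysomal RNA, against 156 and 534 CPM in LSK polysomal RNA (log2 change -3.28, SE 0.60, adjusted p = 0.0237). In total RNA 0 passed, and other settings called at most 5. At an unadjusted p under 0.05, 1 was higher and 6 were lower there, beside 4.52% and 12.5% of all genes. Of 24 macrophage transcription factors tested, Maf and Spic fell in polysomal RNA, beside 2.83% of all genes. In total RNA 0 passed, 5 had an unadjusted p under 0.05, beside 17.1% of all genes, and other settings called at most 4. Spi1, which encodes PU.1, ran from 7.57 to 505 CPM between the LSK polysomal libraries alone and was not called.

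Of 28 complement genes other than C1q, 19 were tested and 0 passed in either fraction, with medians of 0.53 in polysomal and -0.42 in total RNA. At an unadjusted p under 0.05, 2 were higher and 4 lower in polysomal RNA, beside 6.09% and 11.7% of all genes. In total RNA 2 were higher and 3 lower, beside 4.52% and 12.5%. DESeq2 and the other settings called at most 5 of them in polysomal and 3 in total RNA. C3, the central complement protein, had 970.2, 524 and 415 CPM in MP polysomal RNA, against 90.4 and 45.9 CPM in LSK polysomal RNA (log2 change 3.22, SE 0.89, adjusted p = 0.0862). C4b, which acts just after C1q, had a log2 change of -2.03 (SE 0.60, adjusted p = 0.102), and C1ra, a protease that joins C1q, one of -1.86 (SE 0.56, adjusted p = 0.109). Their values in MP polysomal RNA lay below those in LSK polysomal RNA in all libraries, at 0.760 to 0.956 against 3.03 and 3.75 CPM for C4b, and 4.65 to 7.20 against 21.2 and 24.3 CPM for C1ra. Of 10 genes for C1q binding and C1q receptors, 8 were tested and 0 passed in either fraction, with at most 2 called by any other setting. In polysomal RNA 2 were higher and 1 lower at an unadjusted p under 0.05, beside 6.09% and 11.7% of all genes.

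Of 18 genes of heme handling and the Spic pathway, 16 were tested. Slc40a1 and Tfrc, the transferrin receptor, rose in MP polysomal RNA, and Spic fell, beside 0.524% and 2.83% of all genes. Tfrc had 711, 567.7 and 645 CPM in MP, against 102 and 32.3 CPM in LSK (log2 change 3.26, SE 0.70, adjusted p = 0.0385). Hmox1, the heme-degrading enzyme, had 7.72, 3.67 and 2.33 CPM in MP polysomal RNA, against 33.9 and 54.5 CPM in LSK polysomal RNA, and was not called. Slc40a1, Vcam1 and Tfrc are also made by erythroid precursors or stroma. Summed CPM of 12 erythroid markers were 1527 to 1919.8 in MP polysomal RNA, against 178 and 289 in LSK polysomal RNA. Tfrc is among these 12, so the sum is in part Tfrc itself. Ermap had a further 529 to 616 CPM in MP polysomal RNA, against 44.7 and 23.8 CPM in LSK polysomal RNA. Of the 12 markers, 4 had a log2 change below 0 there, beside 51% of all genes. The part of erythroid precursors or stroma in the iron genes was not tested. Of 25 lysosome and phagosome membrane genes, to which Cd68 is related, 0 passed in either fraction, with medians of -0.11 in polysomal and 0.76 in total RNA. Of 15 tested C-type lectin and scavenger receptors, Mrc1, Cd163 and Cd68 included, 0 passed in either fraction. At an unadjusted p under 0.05, 2 of the 25 and 6 of the 15 differed in polysomal RNA, beside 17.8% of all genes. In total RNA 4 and 2 did, beside 17.1%. Other settings, DESeq2 included, called at most 2 and 4.

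Each of these list genes lost its call in at least 1 setting. Without LSK polysomal library 2, adjusted p in polysomal RNA was 0.126 for Gas6, 0.127 for Mfge8, 0.164 for Tfrc and 0.0649 for Slc40a1. Maf reached 0.0502 without LSK polysomal library 1. Without any 1 of the MP polysomal libraries it was 0.0946 to 0.149 for Gas6, 0.0973 to 0.112 for Mfge8, 0.0695 to 0.111 for Maf, 0.0657 to 0.0896 for Slc40a1 and 0.109 to 0.119 for Tfrc, which also lost it without MP total library 1 (0.0559) or 2 (0.0558). In total RNA, Slc40a1 and Vcam1 lost theirs without any 1 of the total or MP polysomal libraries (0.0595 to 0.28 for Slc40a1 and 0.0686 to 0.284 for Vcam1). Ly6a lost its call without the same libraries in total RNA (0.0595 to 0.28) and without MP polysomal library 1 (0.0504) or 2 (0.0716) in polysomal RNA. The log2 changes kept their sign in each case.

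**Figure D5:**
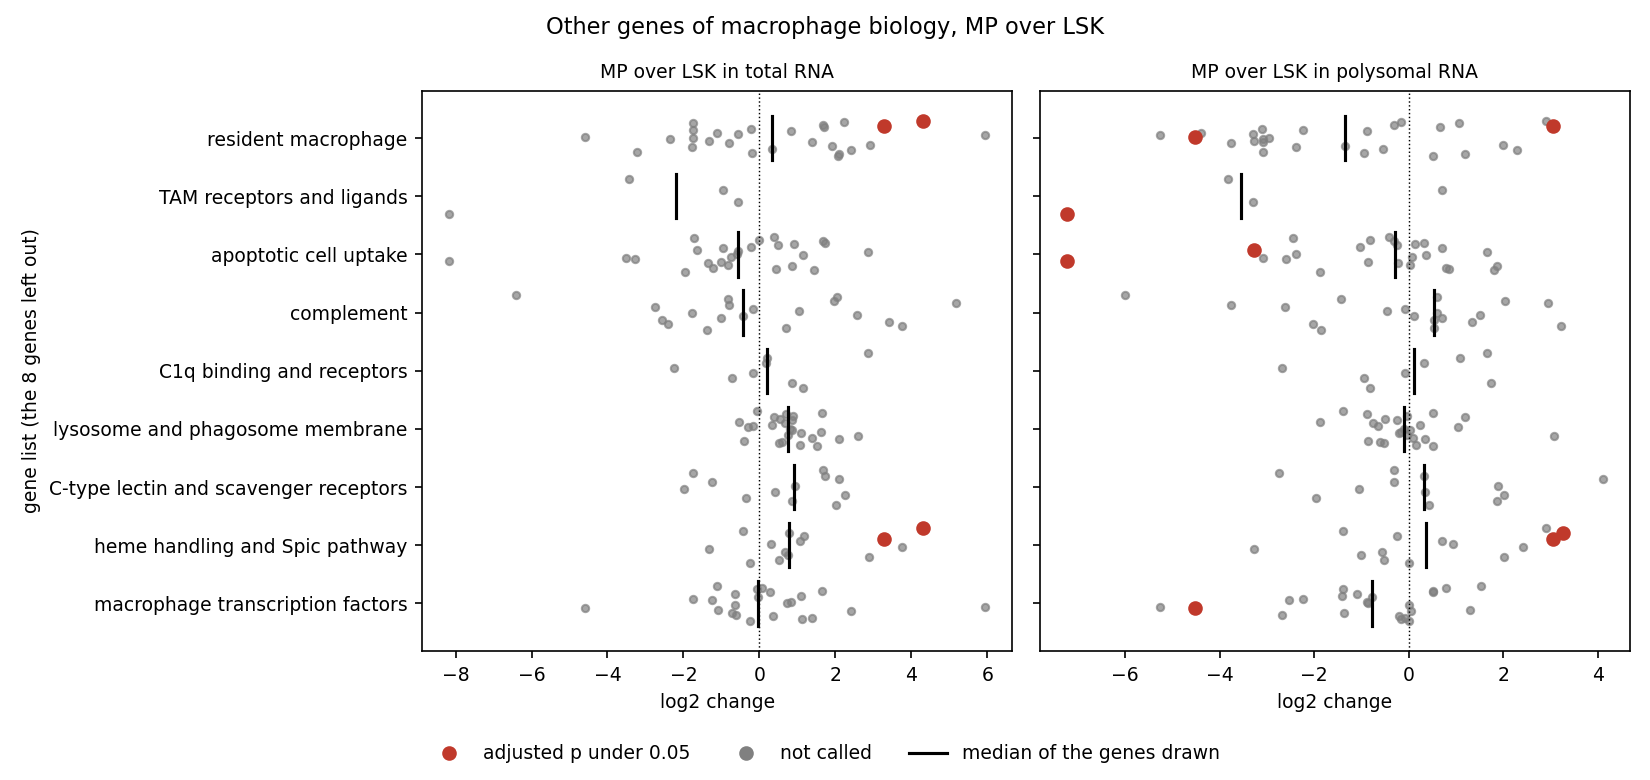
Log2 change of MP over LSK for the tested genes of 9 lists around the 8 genes, which are left out, in total (left) and polysomal RNA (right), with a line at the median and red points where the adjusted p was under 0.05. Most points are grey on both sides of 0, and red points lie on both sides within the resident macrophage list in polysomal RNA.

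Markers of other cell types that a sort of blood-forming cells can hold also differed between the groups. The calls below stand beside 0.524% of all genes that rose and 2.83% that fell in MP polysomal RNA. In total RNA these shares were 0.274% and 0.816%. Of 18 markers of monocyte and granulocyte progenitors, 4 rose in MP in both fractions (Elane, Ly6c2, Cebpe and Ms4a3). All 18 summed to 39320 to 52450 CPM in MP polysomal RNA, against 10233 and 12725 CPM in LSK polysomal RNA. Mpo, which was not called, held 29530 to 34820 CPM of this in MP and 6952 and 9813 CPM in LSK. Of 10 dendritic cell markers tested, 2 fell in polysomal RNA, H2-Aa and H2-Eb1, and the summed level was 179.8 to 244 CPM in MP, against 544 and 818 CPM in LSK. Cd74 held 253.7 CPM of this sum in LSK polysomal library 1, and H2-Ab1 held 428 CPM in library 2. Of the 10 markers, 8 had a log2 change below 0 in polysomal RNA, beside 51% of all genes. Zbtb46 went the other way, at 9.87, 13.5 and 46.9 CPM in MP polysomal RNA, against 2.03 and 2.24 CPM in LSK polysomal RNA. Siglech, Xcr1 and Clec9a stayed at or below 1.83 CPM in polysomal RNA. B cell markers summed to 155 to 357 CPM in MP polysomal RNA, against 899.5 and 3368 CPM in LSK polysomal RNA, where library 2, the highest in C1q, was also the higher one, and 3 of 9 fell. They summed to 625 and 4794 CPM in the LSK total libraries, of which the second was the lower one in C1q. Dendritic cells can also make C1q, and the part of these cells in the C1q result was not tested. Of 12 erythroid markers, 4, Tfrc among them, rose in polysomal and 2 in total RNA. Of 10 neutrophil markers, 4 tested stroma markers and 3 tested T and NK cell markers, 0 passed, and 1 of 10 endothelial markers, Emcn, and 8 of 10 stem cell markers fell in both fractions.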

How the data were processed

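RNA was measured by sequencing in 9 libraries of LSK and MP cells, as total and as polysomal RNA. RNA was taken up in Trizol and amplified by a SMARTer protocol, per the labels' protocols. The authors deposited 2 tables by gene symbol, one of raw counts and one of normalized values on a scale like log2. Builds mm10 and GRCm38 and the tools STAR, featureCounts, bcl2fastq and DESeq2 stand in the submitters' processing notes. Not given in the sources used here: versions, annotation, strand setting and the method behind the deposited log2 values. Reads of antisense partners may thus be mixed. Exons of the 8 genes overlap those of 0 other genes in GENCODE M21.

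R 4.3.3 was used, with edgeR 4.0.16, limma 3.58.1 and DESeq2 1.42.0. Genes were filtered with filterByExpr (minimum count 10, minimum total 15), which left 16426 of 47480. Libraries were scaled by TMM, and CPM are counts per scaled library size. edgeR's quasi-likelihood test used 1 mean for each group over the 9 libraries (residual degrees of freedom 5, prior 4.58) and was two-sided, with Benjamini-Hochberg adjustment over all genes tested and a threshold of 0.05. Levels per kb use the union of exons in GENCODE M21. The procedure was tested on simulated data, with changes planted only in genes with a mean above 5 CPM over the 9 libraries. C1qa, C1qb, C1qc, Mrc1 and Spic had means of 2.01 to 4.42 CPM, so the simulation does not cover genes at their level. Totals were similar, so for most genes the spread between libraries (median coefficient of variation 0.558) limited the precision. For the C1q genes in the MP libraries, counts of 5 to 36 limited it as well.

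The members and the gene lists were chosen with earlier results of these data known. Genes named are the members in every comparison, from each list the genes that passed and up to 3 with the smallest p, Ly6a and Kit, and the 5 genes most correlated with each member, of which 1 is not reported here. Defining macrophage markers, a few other list genes, H2-Aa, H2-Eb1 and the motifs were picked for description after their values were seen. Alternatives were other scalings, no low-count filter, DESeq2, the replicate number as a block, the compared groups alone, limma on the authors' normalized values, and each library left out. Removal of each library's trend with GC content (known for 96.5% of genes) and the counts of list genes per setting were added after seeing the data.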

Additional observations from a re-analysis of the deposited data

How the results depend on the processing

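Of the log2 changes of the 8 members in the 5 comparisons, 277 of the values under other settings kept their sign and side of the threshold, 15 changed sign, 9 lost and 11 gained a call, and with a library left out 309, 27, 24 and 0 did. The compared groups alone give no value for the interaction. The 4 members called in polysomal RNA between MP and LSK became 1 with the replicate block, 0 with the compared groups alone, 2 with the GC trend removed, 5 with no low-count filter or with DESeq2 and 0 to 4 with a library left out. In total RNA the 0 members became 1, Spic, with no low-count filter, DESeq2, the replicate block or the authors' normalized values (adjusted p = 0.0289, 0.00292, 0.0382 and 0.0419). In LSK polysomal over total RNA the 0 members became 2 with no low-count filter or DESeq2 and 1 with the authors' normalized values. The 179 genes called in total RNA became 328 with library totals alone, 1206 with no low-count filter, 1471 with DESeq2, 570 with the replicate block, 0 with the compared groups alone, 850 with the authors' normalized values, 327 with the GC trend removed and 0 to 446 with a library left out. The 551 in polysomal RNA became 1558 with no low-count filter, 1624 with DESeq2, 304 with the compared groups alone and 0 to 516 with a library left out. The 0 in LSK polysomal over total RNA became 547 with no low-count filter, 433 with DESeq2 and 486 with the authors' values, the 0 in MP became 22 and 30 with no low-count filter and DESeq2, and the 0 of the interaction became 4 and 1. Signs changed only for log2 changes that were not called. Cd163 between populations in polysomal RNA was 0.34 with the replicate block and 0.0030 with the GC trend removed. In MP polysomal over total RNA, C1qc was 0.0012 with DESeq2's size factors in edgeR, 0.022 with no low-count filter, 0.0017 with DESeq2, 0.40 with the replicate block, 0.0028 with the compared groups alone, 0.062 with the authors' values and 0.54 with the GC trend removed, and Cd68 was 0.12 with the replicate block and 0.20 with the GC trend removed. In the interaction, Spic was 0.13 with library totals alone and 0.36 with the replicate block, and Mrc1 was -0.15 with the authors' values and -0.85 with the GC trend removed. With a library left out, values that changed sign ran from -1.49 to 0.56 for C1qa and -0.058 to 0.78 for Cd68 in total RNA, -0.72 to 0.028 for Cd68 and -0.68 to 1.00 for Cd163 in polysomal RNA, -1.48 to 0.41 for Cd163 in LSK polysomal over total RNA, -0.16 to 1.34 for C1qb, -0.79 to 1.89 for C1qc and -0.42 to 0.41 for Cd68 in MP, and -0.62 to 1.55 for Mrc1 and -0.65 to 0.85 for Spic in the interaction. The cause of these shifts was not tested. The numbers of the libraries were not treated as pairs, and the labels tie no number to a mouse or day. The deviations of same-numbered libraries from their group means correlated at 0.283 to 0.715 for number 1. For number 2 they correlated at -0.558, -0.471 and -0.0832 in pairs with MP polysomal library 2 and at 0.283 to 0.715 in the others. Between groups of 2 libraries both numbers give the same value by construction. Each lysate was split, so total and polysomal libraries may share lysates, which the tests by group mean leave out. Library totals alone moved the median of all genes by up to 0.378 on the log2 scale and the share of higher genes among those called in total RNA to 13.1%, from 25.1% with TMM. Counts of 5 to 36 in the MP libraries limit what can be said of the C1q genes there.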
